A study of Mus musculus with 2 samples.

Results

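The Krüppel-like factors (KLF) are zinc finger transcription factors, and 10 of them other than the erythroid factor Klf1 were followed here: Klf2, Klf3, Klf4, Klf6, Klf7, Klf9, Klf10, Klf11, Klf12 and Klf13. Their members on the array were all 36 probe sets that the platform annotation assigns to these 10 genes, of 45101 probe sets on the array and 18193 annotated genes. For these genes every annotated probe set was taken whatever its signal, but the genes themselves were chosen with earlier results of these data known. The cells were KLS cells of mouse bone marrow, sorted as negative for lineage markers (lin-) and positive for c-kit and Sca, a fraction that holds haematopoietic stem cells and early progenitors. One group was wild type and the other came from mice in which the TIF1γ gene (Trim33) was conditionally inactivated, labelled TIF1γ Δ/Δ. The sources used here do not give the Cre line, the ages or the number of mice behind each RNA sample. Each genotype was measured on 1 Affymetrix array, so every value below compares 2 arrays, has no replicate check and carries no p-value.

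KLF proteins bind CACCC elements and GC boxes in DNA through zinc fingers at their carboxyl end, and differ in the part of the protein that recruits cofactors. Klf2, Klf4, Klf6 and Klf7 belong to a group known mainly as activators that recruit histone acetyltransferases. Klf3 and Klf12 are repressors that bind the corepressor CtBP. Klf9, Klf10, Klf11 and Klf13 can repress through the Sin3 and histone deacetylase complex. In blood, Klf4 is known for its part in monocyte differentiation, Klf2 for quiescence and trafficking of lymphocytes, and Klf10 as a gene induced by TGF-beta, a pathway in which TIF1γ also acts.

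The values are MAS5 signals, which are intensities on a linear scale. A probe set was taken as measured on an array when its signal reached that array's median over all non-control probe sets, called the floor, and the floors were 14.4 for wild type and 11.7 for TIF1γ Δ/Δ cells. A difference is the log2 signal on the TIF1γ Δ/Δ array minus that on the wild type array, centred on the median of probe sets measured on both arrays. Where a probe set was under the floor on 1 array, the floor took the place of that signal and the difference is a bound. Signals of different probe sets are not compared with each other, because probes differ in brightness.

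The arrays differed far more in genes of neutrophils than in KLF genes. All 8 neutrophil markers with a probe set were lower in TIF1γ Δ/Δ cells by at least 2-fold, with a summed signal of 30853 in wild type and 125 in TIF1γ Δ/Δ cells. Megakaryocyte markers went the other way, with 5 of 6 above 0, 2 at least 2-fold higher, none at least 2-fold lower and a median of 0.72. Over the 11439 genes with a difference, 2.60% were at least 2-fold higher, 6.16% at least 2-fold lower and 51.3% above 0. Markers of the sorted cells had a summed signal of 4433 and 5530, and all 7 with a probe set, Kit among them, were measured on both arrays; Ly6a, which encodes Sca, was not analysed here. Trim33 itself was lower, at 379 in wild type and 172 in TIF1γ Δ/Δ cells (log2 -1.12), and the sources used here do not say whether its probes lie in the deleted part. In these sorted populations, fewer cells of a type and less RNA per cell cannot be told apart.

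The promoters of the 4 KLF genes that lay furthest from 0 by their brightest probe set are shown here, as background for the values that follow. Of the 10 genes, 9 matched an entry of the RefSeq promoter table (GRCm38.p6), all but Klf10. Each sequence is the 250 bases before the annotated start, 5′ to 3′ on the strand of the gene, and capitals mark every match to CACCC or GGGCGG on either strand, including overlapping matches. The regions are chr4:55532476-55532725 on the minus strand for Klf4, chr13:5861239-5861488 on the plus strand for Klf6, chr8:72318812-72319061 on the plus strand for Klf2 and chr5:64803271-64803520 on the plus strand for Klf3.
Klf4: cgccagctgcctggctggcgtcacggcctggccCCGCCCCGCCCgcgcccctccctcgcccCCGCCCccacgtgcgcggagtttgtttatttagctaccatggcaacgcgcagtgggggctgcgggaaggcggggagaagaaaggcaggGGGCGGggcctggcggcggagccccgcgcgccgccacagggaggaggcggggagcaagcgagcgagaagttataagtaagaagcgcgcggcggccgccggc
Klf6: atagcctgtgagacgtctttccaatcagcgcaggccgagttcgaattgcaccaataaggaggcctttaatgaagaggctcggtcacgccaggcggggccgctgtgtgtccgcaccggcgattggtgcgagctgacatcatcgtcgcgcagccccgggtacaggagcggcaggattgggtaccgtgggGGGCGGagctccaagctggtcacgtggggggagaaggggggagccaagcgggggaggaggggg
Klf2: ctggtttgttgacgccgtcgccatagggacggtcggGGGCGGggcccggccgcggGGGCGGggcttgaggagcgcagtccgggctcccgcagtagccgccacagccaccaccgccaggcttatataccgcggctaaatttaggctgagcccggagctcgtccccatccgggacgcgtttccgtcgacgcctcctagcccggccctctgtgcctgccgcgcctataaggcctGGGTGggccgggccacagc
Klf3: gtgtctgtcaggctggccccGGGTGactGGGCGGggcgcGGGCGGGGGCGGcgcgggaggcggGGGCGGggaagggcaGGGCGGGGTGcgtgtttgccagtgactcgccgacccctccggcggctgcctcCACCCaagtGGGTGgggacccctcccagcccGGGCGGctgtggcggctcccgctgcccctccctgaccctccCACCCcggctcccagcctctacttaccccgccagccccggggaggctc

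The Klf3 promoter carried the most of these matches among the 9, with 5 to CACCC and 6 to GGGCGG. Klf4 had 4 matches to GGGCGG and none to CACCC, and Klf6 had 1 to GGGCGG and none to CACCC. The Klf6 window had 4 matches to CCAAT, the box that NF-Y binds. The Klf2 window held 1 match to the MEF2 motif, CTAAATTTAG, from -118 to -109 relative to the start, in lower case above. MEF2 factors are known inducers of Klf2. Over all 32851 promoters of the table, searched the same way on both strands, 52.0% held CACCC, 32.7% held GGGCGG, 33.8% held CCAAT, 0.508% the MEF2 motif and 1.47% the CArG box that serum response factor binds. Among the 9 KLF promoters, 6 held CACCC, 7 held GGGCGG, 4 held CCAAT, 1 the MEF2 motif and none the CArG box. Their median GC content was 71.2%, against 52.4% for all promoters, and was highest for Klf3, at 78.4%, and lowest for Klf12. A match describes the letters of the window and is not evidence of a bound site.

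**Figure D1:**
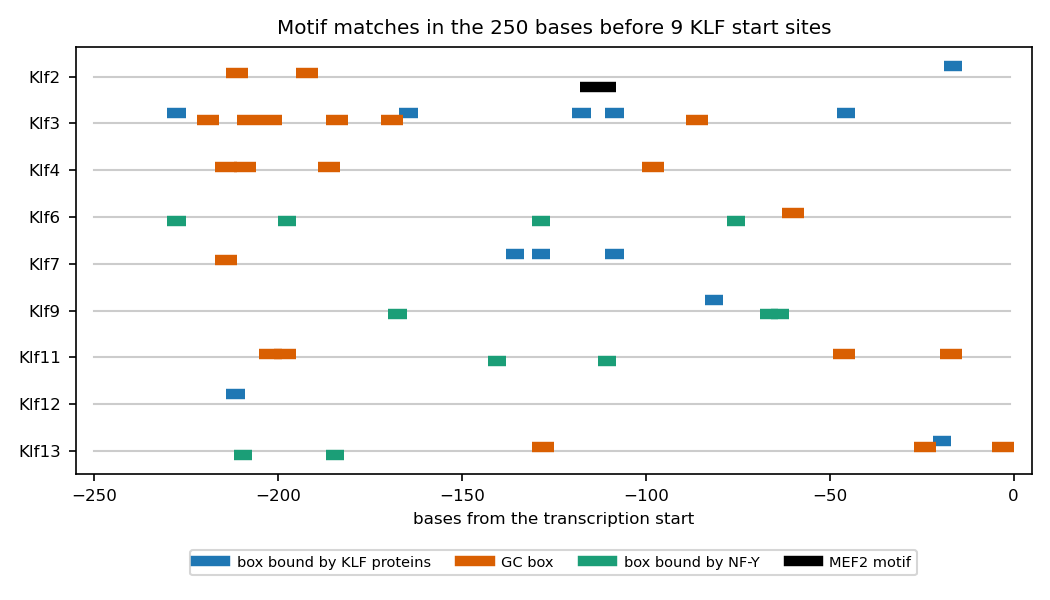
Motif matches in the 250 bases before the start of 9 KLF genes, one row per gene, against distance from the start in bases. Blue bars are matches to the CAC-type box bound by KLF proteins, orange to the GC box, green to the box bound by NF-Y and black to the MEF2 motif; the only MEF2 match lies in the Klf2 row and 4 NF-Y box matches lie in the Klf6 row.

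Within the family, Klf4 was lower and Klf6 higher on the TIF1γ Δ/Δ array, and the other 8 genes were under 2-fold apart. A gene's value is that of its brightest probe set, by mean log2 signal, and by this rule all 10 were measured on both arrays. Klf4 was the 1 KLF gene at least 2-fold lower, where 6.16% of the 11439 genes with a difference were, and Klf6 the 1 at least 2-fold higher, where 2.60% of genes were. In all, 3 of the 10 were above 0 and 7 below, with a median of -0.083, beside a median of 0.017 over all genes. The KLF median was -0.17 with quantile and -0.21 with loess scaling. By cofactor group the medians were -0.26 for the 4 activating factors, which spanned -1.67 to 1.10, -0.22 for the 2 CtBP-binding factors, and -0.080 for the 4 Sin3-binding factors, which spanned -0.28 to 0.33. The 2 genes past 2-fold were thus both activating factors and lay on opposite sides of 0. The 10 genes lie on 10 different chromosomes.

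**Figure D2:**
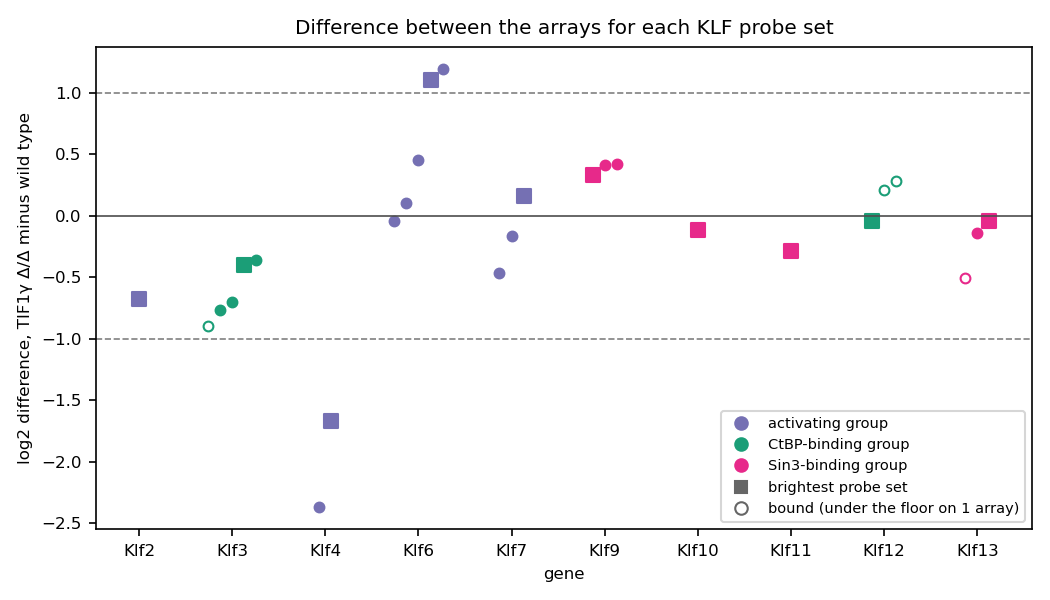
Log2 difference between the TIF1γ Δ/Δ and the wild type array for each of the 27 KLF probe sets with a difference, by gene and coloured by cofactor group; squares are the brightest probe set of a gene, open circles are bounds and dashed lines mark 2-fold. Both Klf4 probe sets lie below -1 and 2 of the 5 Klf6 probe sets above 1, with all other values and bounds between the lines.

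Of the 36 probe sets, 23 were measured on both arrays, 2 on the wild type array only, 4 on the TIF1γ Δ/Δ array only and 7 on neither. A difference could be given for 27, since for 2 of the 4 the floors allowed no bound. Of the 27, 2 were 2-fold or more higher and 2 were 2-fold or more lower, where 2.86% and 6.10% of 20103 annotated probe sets were. Differences among probe sets of one gene measure how probes disagree and not how mice differ. Over 4534 genes with at least 2 probe sets measured on both arrays, their pooled SD was 0.452 on the log2 scale.

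**Figure D3:**
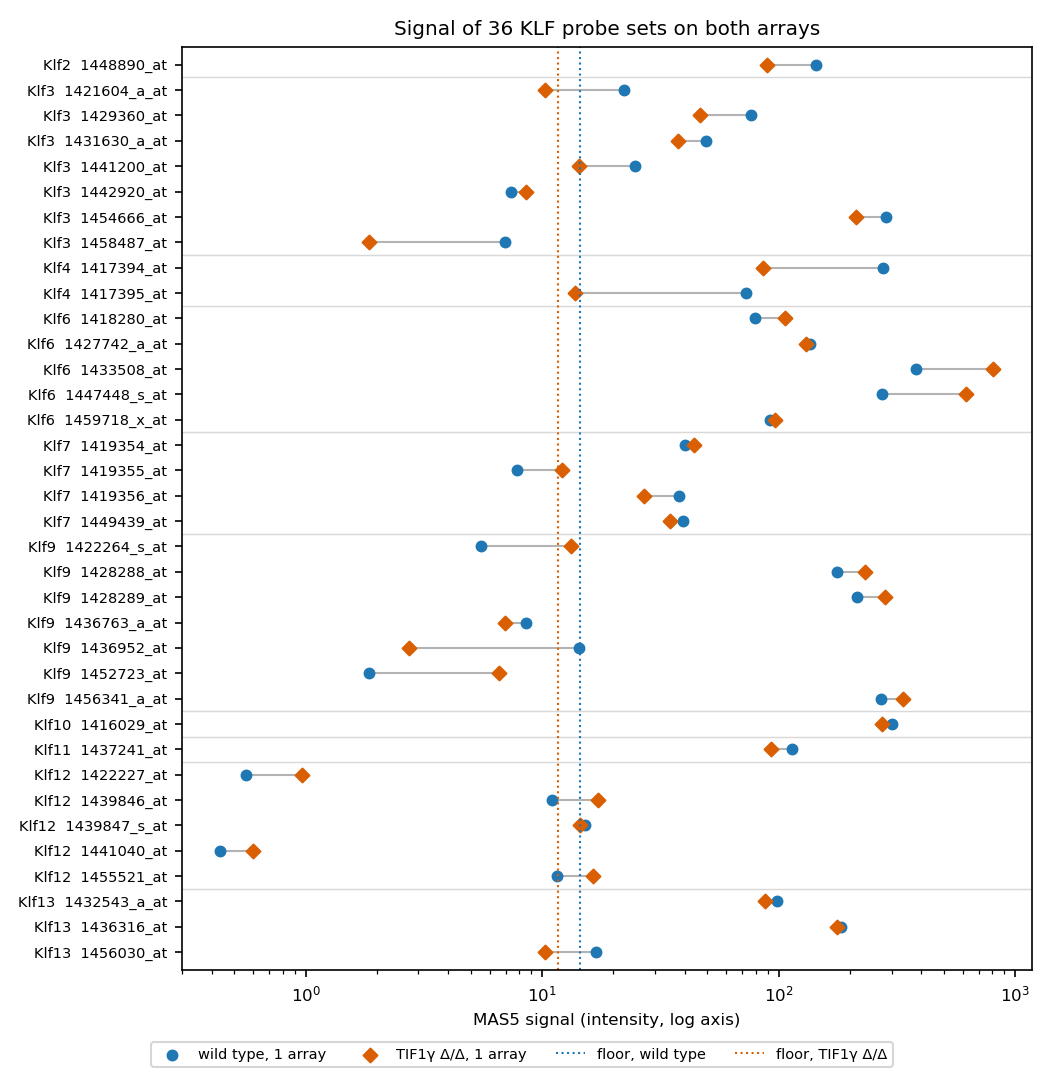
MAS5 signal of the 36 KLF probe sets on a log axis, with the wild type array as blue circles, the TIF1γ Δ/Δ array as orange diamonds and dotted lines at the floor of each array (14.4 and 11.7). The gap is widest to the left for Klf4 among probe sets measured on both arrays, while the 3 bright Klf9 probe sets and the brightest Klf6 probe sets shift to the right.

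Klf4 is a reprogramming factor and a regulator of monocytes, and it lay lowest of the 10. Its brightest probe set, 1417394_at, had a signal of 276 in wild type and 85.5 in TIF1γ Δ/Δ cells, a log2 difference of -1.67 or 3.18-fold lower. The probe set 1417395_at gave 72.6 and 13.8, a log2 difference of -2.37, and its TIF1γ Δ/Δ signal was close to the floor of 11.7. Both probe sets of Klf4 were therefore lower, and the annotation gives them the same source sequence, so they are not independent readings. Only 1.99% of the genes with a difference lay below Klf4.

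Markers of monocytes and macrophages were lower together with Klf4. Of 12 such markers, 11 were 2-fold or more lower, where 6.16% of all genes were, and none was higher. Their median was -3.50, and the summed signal was 5407 in wild type and 366 in TIF1γ Δ/Δ cells. In TIF1γ Δ/Δ cells 7 of the 12 were at or above the floor, and the complement gene C1qa (247 and 0.503) and the macrophage antigen Adgre1 (140 and 8.38) were among the 5 that did not. Endothelial cells also express Klf4 and Klf2. Of 8 genes of endothelium and stroma 4 had a difference, all past 2-fold, 2 upward and 2 downward. The summed signal over all 8 was 482 in wild type and 414 in TIF1γ Δ/Δ cells. The endothelial gene Emcn was at least 2.03-fold higher (10.8, under the floor, and 28.8), and the stromal gene Pdgfrb gave 118 and 279 (log2 1.27). Lower were Lpl, a lipase that macrophages also express (log2 -2.40), and the chemokine gene Cxcl12 (log2 -1.16). Cdh5, Pecam1, Kdr and Col1a1 were under the floor on both arrays. The part of monocytes, macrophages or endothelial cells in the Klf4 difference was not tested.

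Klf6 is an activator and tumour suppressor that is induced early after many stimuli, and its probe sets disagreed. The brightest, 1433508_at, had a signal of 382 in wild type and 808 in TIF1γ Δ/Δ cells, a log2 difference of 1.10 or 2.15-fold higher. The probe set 1447448_s_at gave 275 and 618 (log2 1.19). These 2 were the only KLF probe sets with a value or bound at least 2-fold higher.

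The other 3 probe sets of Klf6 were nearer to 0. They gave 79.5 and 107 for 1418280_at (log2 0.45), 91.7 and 96.8 for 1459718_x_at (log2 0.10), and 136 and 130 for 1427742_a_at (log2 -0.042). The annotation gives 1447448_s_at and 1459718_x_at the same source sequence, although their differences were 1.19 and 0.10. The 5 differences spanned 1.24, where the median span over 153 genes with 5 such probe sets was 1.04 and 66.0% of these spanned less. Their mean was 0.56, so Klf6 was no longer 2-fold higher with the mean of its measured probe sets. With loess scaling the brightest probe set gave 0.997. By the brightest probe set, 98.4% of genes lay below Klf6.

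Klf2 and Klf7 complete the activating group. Klf2 had a single probe set, with a signal of 144 in wild type and 88.9 in TIF1γ Δ/Δ cells, a log2 difference of -0.67 or 1.596-fold lower. Klf2 lay next above Klf4 among the 10 genes, and 13.1% of all genes lay below it. At a 1.5-fold threshold it joined Klf4 among the lower genes, where 15.7% of genes were. Klf7 gave 40.02 and 43.95 for its brightest probe set (log2 0.16), while 1419356_at gave 37.8 and 26.9 (log2 -0.47) and 1449439_at gave 39.3 and 34.6 (log2 -0.16). The remaining probe set of Klf7 was below the wild type floor, and all 4 have the same source sequence in the annotation. The direction of Klf7 thus depended on the probe set, with a mean of -0.16.

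Of the CtBP-binding repressors, Klf3 was lower by every probe set with a difference. Its brightest, 1454666_at, had a signal of 285 in wild type and 213 in TIF1γ Δ/Δ cells (log2 -0.40). The other probe sets measured on both arrays gave 76.5 and 46.3 for 1429360_at (log2 -0.70), 49.3 and 37.7 for 1431630_a_at (log2 -0.36), and 24.8 and 14.4 for 1441200_at (log2 -0.76). The probe set 1421604_a_at gave 22.1 on the wild type array and was under the floor on the other, which makes it at least 1.87-fold lower. All 5 were therefore lower, and the 4 measured on both arrays were under 2-fold. For 1421604_a_at 2-fold was neither shown nor denied, since its signals with no floor gave -1.08. The remaining 2 of the 7 probe sets of Klf3 were under the floor on both arrays.

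Klf3 is known as a gene that Klf1 activates in erythroid cells. Klf1 gave 496 and 149 (log2 -1.71), and erythroid markers, Klf1 among them, were lower on the same array. Of the 8 with a difference, 7 were at least 2-fold lower, where 6.16% of all genes were, with a median of -1.74. The summed signal of all erythroid markers with a probe set was 6470 and 3015. Most of that sum came from Car2 (2879 and 2016, log2 -0.49), the 1 marker under 2-fold, and Car1 (2154 and 673, log2 -1.65). The erythroid marker Hba-a1 was under the floor on both arrays. The part of erythroid cells in the Klf3 difference was not tested.

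Klf12, the other CtBP-binding factor, was barely measured. Its brightest probe set gave 15.2 and 14.4 (log2 -0.047), close to the floors. The probe sets 1439846_at (11.0 and 17.3) and 1455521_at (11.6 and 16.4) were below the wild type floor and at least 1.22-fold and 1.16-fold higher, and 2 more were under it on both arrays. No direction can be given for Klf12 from these signals.

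Among the Sin3-binding factors, Klf9 was the 1 gene above 0. Klf9 is a glucocorticoid and thyroid hormone responsive repressor. Its 3 probe sets measured on both arrays gave 270 and 335 for 1456341_a_at (log2 0.33), 214 and 282 for 1428289_at (log2 0.42), and 176 and 231 for 1428288_at (log2 0.41). These 3 differences spanned 0.087. The annotation gives 1428289_at and 1428288_at the same source sequence and none for 1456341_a_at, so the 3 cannot be taken as independent readings. The other 4 of its 7 probe sets were under the floor on at least 1 array, and 72.1% of all genes lay below Klf9, so a difference of this size is common on these arrays.

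The remaining 3 Sin3-binding factors were slightly below 0. Klf10, the TGF-beta inducible early gene also known as Tieg1, gave 301 and 273 (log2 -0.12) from its single probe set. Klf11, its closest relative and also induced by TGF-beta, gave 114 and 92.4 (log2 -0.28), again from 1 probe set. Klf13, a regulator of chemokine expression in T cells, gave 184 and 176 for its brightest probe set (log2 -0.041) and 98.4 and 87.5 for 1432543_a_at (log2 -0.14). The remaining probe set of Klf13 gave 16.8 on the wild type array and was under the floor on the other, which makes it at least 1.42-fold lower (log2 -0.51). By their brightest probe sets, all 3 genes differed by less than the pooled probe set SD of 0.452, as did Klf3, Klf7, Klf9 and Klf12. That SD describes how probes of a gene disagree and is not the error of a difference between arrays.

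**Figure D4:**
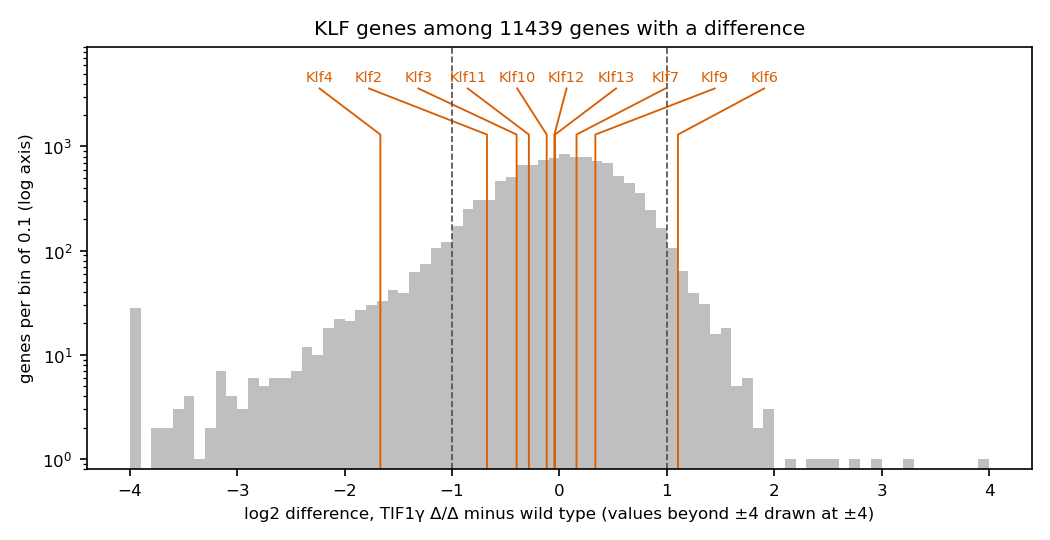
Distribution of the log2 difference between the TIF1γ Δ/Δ and the wild type array over 11439 genes (grey, log axis, bins of 0.1), with the 10 KLF genes marked by orange lines and dashed lines at 2-fold. Klf4 (-1.67) and Klf6 (1.10) lie outside the dashed lines and the other 8 genes within them.

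Genes around the KLF family were read from lists of related genes, each described by its counts beside the shares of all genes, which were 2.60% for higher and 6.16% for lower by 2-fold or more and 51.3% for a difference above 0. Of 7 KLF genes outside the 10, 6 had a probe set and 3 a difference. These were Klf1 (log2 -1.71), Klf5 at 29.4 and 23.8 (log2 -0.28) and Klf16 at 71.3 and 120 (log2 0.78), while Klf14, Klf15 and Klf17 were under the floor on both arrays. Klf5 and Klf16 were named after their values were seen. Of the related Sp factors, which bind the same GC boxes, none of 4 with a difference was 2-fold apart, and the brightest were Sp1 (1113 and 1499, log2 0.45) and Sp3 (125 and 198, log2 0.69).

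Partner proteins of the KLF family were mostly a little above 0. The list held CtBP, Sin3, histone deacetylase and acetyltransferase genes, and also Wwp1, Fbxw7 and Btrc, named with their values known. Its median was 0.15 with quantile and 0.11 with loess scaling. Of 15 with a difference, 11 were above 0, where 51.3% of all genes were, 1 was at least 2-fold higher and none lower, with a median of 0.24. The member past 2-fold was the acetyltransferase Kat2a, at 167 and 343 (log2 1.06), although 1 of its 3 probe sets lay below 0 and their mean was 0.59. Kat2a was also short of 2-fold with quantile (0.97) and loess (0.92) scaling and with a pseudocount of 16 (0.99). The CtBP gene Ctbp1 gave 1047 and 1227 (log2 0.25) and Sin3b gave 2086 and 2000 (log2 -0.037), both named after their values were seen. Without probe sets whose ID marks transcripts shared by several genes or variants (_s_at, _x_at and _a_at) Sin3b was at 0.74. The list then had a median of 0.097, and 1 of its genes was 2-fold lower.

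The inputs to Klf2 and Klf4, which are the MEK5 and ERK5 kinases, MEF2 factors, their histone deacetylases and FoxO factors, were mostly above 0. The list was not split by the direction in which a member acts on Klf2 and Klf4. Its histone deacetylases were Hdac5 at 0.58 and Hdac7 at 0.93, both named after their values were seen. Of 10 with a difference, 9 were above 0, where 51.3% of all genes were, 1 was at least 2-fold higher and none lower, with a median of 0.27. Mef2c, a MEF2 factor of lymphoid and myeloid progenitors, had a signal of 532 in wild type and 1067 in TIF1γ Δ/Δ cells (log2 1.03), and all 5 of its probe sets were higher. Mef2c fell short of 2-fold with quantile (0.98) and loess (0.94) scaling, with the mean of its probe sets (0.82) and under a higher floor, the 65th percentile (0.97). Mapk7, which encodes ERK5, was under the floor on both arrays. The FoxO factors were split, with Foxo1 at 0.17 and Foxo3 at -0.18, both named after their values were seen.

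Genes known to be controlled by Klf2 or Klf4 went both ways. Of 9 with a difference, 1 was higher and 1 lower by 2-fold or more, 3 were above 0 and 6 below, with a median of -0.33. The cell cycle inhibitor Cdkn1a, which Klf4 and Klf6 are both known to activate, gave 171 and 476 (log2 1.503), and both of its probe sets were higher. The other probe set gave 0.44 and their mean was 0.97, so no gene of the list was 2-fold higher with the mean of measured probe sets. The chemokine receptor Ccr7 gave 24.6 on the wild type array and was under the floor on the other, at least 2.08-fold lower. With quantile scaling Ccr7 was at -0.79, with loess scaling at -0.77 and with a pseudocount of 16 at -0.54. The sphingosine phosphate receptor S1pr1, a target of Klf2, gave 48.7 and 24.4 (log2 -0.98) and is named here with its value known. Ccr7 and S1pr1 are also expressed by lymphocytes. T and NK cell markers had a summed signal of 1506 in wild type and 1157 in TIF1γ Δ/Δ cells, most of it from Nkg7 (1249 and 1090, log2 -0.17). Of these markers, 3 of 6 with a difference were at least 2-fold lower, where 6.16% of all genes were. Their median was -0.96, and Cd3e was under the floor on both arrays. The B cell markers had a summed signal of 692 and 208, with 3 of 4 at least 2-fold lower, and Cd79a, Pax5 and Ebf1 under the floor on both arrays. The part of lymphocytes in these differences was not tested.

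TGF-beta genes beside Klf10 and Klf11 were mixed, with a median of 0.070, none of 12 being higher and 2 being lower by 2-fold or more. The 2 were the helix-loop-helix inhibitors Id2, at 1046 and 207 (log2 -2.31), and Id1, which gave 26.4 on the wild type array and was at least 2.23-fold lower. With quantile or loess scaling Id1 was at -0.89, and with a pseudocount of 16 at -0.60. The Smads of the list were above 0, with Smad2 at 0.34 by its brightest probe set and 1.02 by its other, Smad4 at 728 and 951 (log2 0.41), Smad3 at 0.52 and Smad7 at 0.45, named after their values were seen. Without probe sets whose ID marks shared transcripts the list had 1 gene at least 2-fold higher, Smad2, and 0 lower, since Id1 and Id2 had no other probe set with a difference.

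Klf2, Klf4, Klf6 and Klf10 are also known as immediate early genes, which respond to stimuli and to handling of cells. By brightest probe set, none of 19 other immediate early genes was 2-fold apart, and their median was 0.0012, with differences between -0.52 and 0.72. Other probe sets reached lower, to -1.13 for Ier5 and -0.80 for Egr3, and none reached above 0.72. The brightest were Fos, at 4352 and 4672 (log2 0.13), and Dusp1, at 2139 and 2672 (log2 0.34). Klf4 (log2 -1.67) and Klf6 (log2 1.10) thus both lay outside the range of these 19 genes by their brightest probe sets. Klf2 (log2 -0.67) lay below that range but not below the other probe sets of Ier5 and Egr3, while Klf10 lay within it. With the mean of its measured probe sets Klf6 was at 0.56, and 3 of its 5 probe sets lay between -0.042 and 0.45, all inside that range. Whether they differ from the 19 beyond the error of an array could not be tested with 1 array per genotype.

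**Figure D5:**
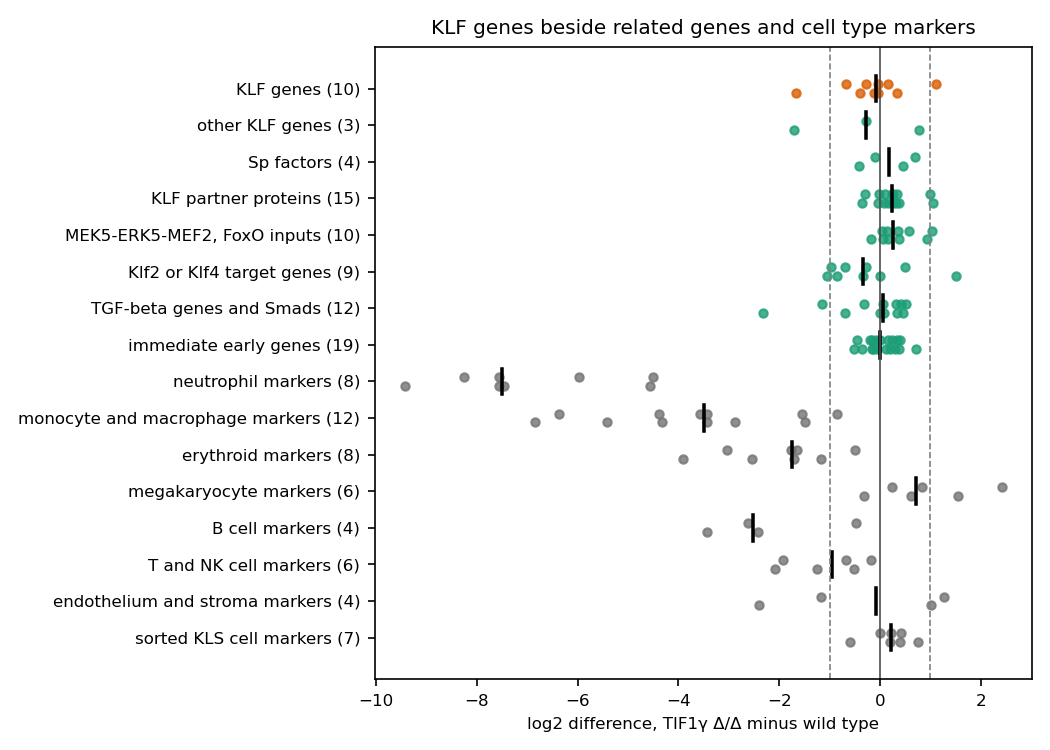
Log2 difference between the TIF1γ Δ/Δ and the wild type array for each gene of the KLF family (orange), of lists of related genes (green) and of cell type marker lists (grey), with the number of genes with a difference in brackets, black bars at the medians and dashed lines at 2-fold. The KLF genes spread from -1.67 to 1.10, the immediate early genes stay between -0.52 and 0.72, and all neutrophil markers lie between -9.43 and -4.51.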

How the data were processed

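The authors deposited 1 table of MAS5 signals, which are intensities on a linear scale, for 2 arrays with 1 per genotype; MAS5 is named per the submitters' processing notes, while the sources used here do not give its version, filters or detection calls. With 2% of the 45101 probe sets trimmed at each end, both arrays had a mean of 100.0, so each had been scaled before deposit. Because MAS5 subtracts mismatch signals, low values are noisy, hence the floor. The number of arrays limits the precision of every value, and groups were taken from the genotype labels.

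Controls (64 probe sets) were not used. Among the rest, 34945 were annotated to 1 gene, 932 to several genes and 9160 to none; no probe set with several genes named a KLF gene of the 10. Symbols were updated by Entrez identifier to RefSeq (GRCm38.p6). The centring subtracted -0.024. A value whose sign opposed the side it was measured on gave no bound, which left out 285 genes. The calculation was tested on simulated data. The text names the 10 genes, all their probe sets, and from each related list up to 4 members at least 2-fold apart, or else the 2 brightest; others are marked. The genes, lists and cofactor groups were chosen with earlier results of these data known. The alternatives covered scaling, floor, a pseudocount, the fold threshold and the rule for a gene's value. Python 3.11.15, numpy 2.4.6, pandas 2.3.3, statsmodels 0.14.6 and matplotlib 3.10.9 were used.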

Additional observations from a re-analysis of the deposited data

How the results depend on the processing

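The directions of Klf2, Klf3, Klf4, Klf6, Klf9, Klf10 and Klf11 were kept under all 11 alternatives. The 1.5-fold and 3-fold thresholds among them leave every log2 difference unchanged, so they could not change a direction. Klf2, Klf10 and Klf11 have 1 probe set each, so the rules for a gene's value could not change theirs either. Klf4 lay between -2.02 and -1.51 and was at least 2-fold lower under each, also at the 3-fold threshold. Klf6 lay between 0.56 and 1.20. The number of KLF genes at least 2-fold higher was 0, against 1, with loess scaling, at the 3-fold threshold and with the mean of measured probe sets. The number lower was 2, against 1, at the 1.5-fold threshold. Of KLF probe sets, 2 were higher in the setting reported; 1 was with loess scaling, 4 without a floor and 0 at the 3-fold threshold. The number of lower probe sets, 2 in the setting reported, was 4 without a floor and 6 at the 1.5-fold threshold. Lowering the floor to the 40th percentile gave 3. The share of all annotated probe sets was counted only in the setting reported. The probe set counts under the alternatives therefore have no background to be read against. Klf7 was above 0 under 10 of 11 alternatives, Klf12 under 5 of the 10 that gave a value, and Klf13 under 1 of 11. These alternatives include the 1.5-fold and 3-fold thresholds, which repeat the value of the setting reported. Counts over all genes also moved, with 2025 higher and 2784 lower without a floor, 1579 and 1791 at 1.5-fold, 26 and 266 at 3-fold, 153 and 356 with a pseudocount of 16, 186 and 658 with the mean of measured probe sets, and 170 and 412 with the floor at the 65th percentile, against 297 and 705. The 1.5-fold and 3-fold counts apply another cut to the same 11439 differences. Without a floor 18193 genes had a difference, and with the floor at the 65th percentile 9113 had one. For the pseudocount and the mean of measured probe sets the cause was not tested. No paired analysis was possible because each genotype had 1 array. Signals near the floor limit Klf12 and the dim probe sets of Klf3, Klf7, Klf9 and Klf13.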
